A study of Mus musculus with 7 samples.

Results

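The genes Msln, Upk3b, Lrrn4, Wt1 and Upk1b, which mark the mesothelium, were followed by name through single-cell count tables of the mouse pancreas. They are 5 of the 33864 genes listed in the 3 tables, and each of them has a row in every table. Values are described per mouse and per cluster name given by the authors. For each of the 7 pancreata, dissociated cells were profiled in 1 library by 10x Genomics 3′ sequencing, in which captured mRNA molecules are tagged with a unique molecular identifier (UMI), so a value is a number of molecules. The 2 WT mice and 3 i4F mice drank water with doxycycline at 1 mg/ml over 7 days. The i4F mice (genotype i4F-B) are heterozygous for rtTA at Rosa26 and for a transgene in Pparg that encodes c-Myc, Klf4, Sox2 and Oct4. Doxycycline induces it in all tissues, so that a change in 1 cell type cannot be tied to induction in that cell type. The other 2 mice were wild type, received no doxycycline according to the labels, and were injected with caerulein, a secretagogue that causes a mild acute pancreatitis (100 µg/kg, 7 injections a day on 2 days). They are called CER mice here. All mice were C57BL/6 animals of 2 months. The design asks how a pancreas in which reprogramming is under way differs from a normal and from a damaged pancreas.

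The mesothelium is the single layer of flattened cells that covers the pancreas and lines the abdominal cavity. It descends from mesoderm, combines keratins and apical membrane proteins with mesenchymal genes, and is known as a source of fibroblast-like cells after injury. Msln encodes mesothelin, a glycoprotein held at the cell surface by a lipid anchor. Upk3b and Upk1b encode uroplakins, membrane proteins first known from the bladder lining, of which Upk1b is a tetraspanin. Lrrn4 encodes a transmembrane protein with leucine-rich repeats. Wt1 encodes a zinc-finger transcription factor of the mesothelium, which is also made by stellate cells, the fibroblast-like cells of the pancreas that store vitamin A when quiescent.

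In GRCm38, the build of the counts, Msln lies on the minus strand at chr17:25748613-25754378, Upk3b on the plus strand at chr5:136038496-136046487, Lrrn4 on the minus strand at chr2:132868305-132880891, Wt1 on the plus strand at chr2:105126529-105173616, and Upk1b on the minus strand at chr16:38773184-38800328. All are annotated as protein-coding genes. The antisense gene Wt1os lies next to Wt1 on the opposite strand, at chr2:105076538-105126510. Upk3b and Lrrn4 were the members whose levels followed each other closely across clusters and whose promoters are in the RefSeq table used here, and both promoters are shown because they share a motif. Each runs from 250 bases before to 50 bases after the start in that table and is written in the direction of the gene, for Upk3b chr5:136038246-136038545 on the plus strand and for Lrrn4 chr2:132880813-132881112 on the minus strand of GRCm38.p6. For Lrrn4 this start lies inside the gene coordinates given above and is not their end. Capitals mark the TEAD motif CATTCC or its reverse complement GGAATG.

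Upk3b: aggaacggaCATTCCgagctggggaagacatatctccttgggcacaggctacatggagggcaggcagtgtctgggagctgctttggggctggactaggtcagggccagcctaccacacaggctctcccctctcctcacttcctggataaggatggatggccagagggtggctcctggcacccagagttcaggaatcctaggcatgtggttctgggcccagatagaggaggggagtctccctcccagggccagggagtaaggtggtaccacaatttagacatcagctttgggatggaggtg

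Lrrn4: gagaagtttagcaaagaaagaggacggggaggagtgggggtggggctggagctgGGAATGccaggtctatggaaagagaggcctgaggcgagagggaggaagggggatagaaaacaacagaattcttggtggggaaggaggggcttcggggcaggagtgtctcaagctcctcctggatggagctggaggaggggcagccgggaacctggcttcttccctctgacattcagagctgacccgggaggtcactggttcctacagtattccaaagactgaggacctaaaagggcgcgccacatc

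TEAD factors are the DNA-binding partners of the YAP and TAZ coactivators. The motif starts 241 bases before the start of Upk3b and, on the opposite strand, 196 bases before that of Lrrn4. It is present on either strand in 14.7% of the 32851 promoters of this length in the table. The KLF motif CACCC was also found in both, as in 57.5% of all promoters. None of the other motifs searched on both strands was found in either window, namely the octamer ATGCAAAT (1.74% of all promoters), the SOX motif ACAAAG (18.7%), the GC box GGGCGG (35.7%), the WT1 and EGR motif GCGGGGGCG (2.91%) and the TATA box TATAAA (13.6%). These matches describe letters only.

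The libraries held 4327 and 6326 (WT), 9811, 8218 and 7614 (i4F), and 15138 and 7039 (CER) cells with 15469018 to 64784216 UMIs. Cells outside the macrophage, B cell and NK/T cell clusters, called non-immune cells here, numbered 3805 to 6525 per mouse. The third i4F library stood apart, with a median of 1295.5 UMIs per non-immune cell against 2574.5 to 8833 in the others and with 3 UMIs of Pou5f1 (Oct4, encoded by the transgene) against 154 and 315 in the other i4F mice, and against 16 and 3 in WT and 31 and 32 in CER mice. The 3′ counts do not separate the transgene from the endogenous gene. Results that rest on this library are therefore also given without it. The library names form 2 series, 1 with WT 1 and the i4F mice and 1 with WT 2 and the CER mice, and what the series marks is not stated. With the series as a term in the fits described here, 0 of the 5 members passed in non-immune cells in any comparison, and in stellate clusters 1 passed in i4F against WT and 0 in the others. Within a series, each condition met a single WT mouse, and the values given per mouse show those contrasts. Of the cell barcodes, 366 occurred in 2 libraries and 57741 in 1.

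In WT and CER mice, the cluster named Mesothelium held nearly all UMIs of 4 of the 5 genes. It comprised 100 and 94 cells in WT and 243 and 36 cells in CER mice. Its share of a library's UMIs was 96.3%, 94.3%, 97.0% and 98.5% for Upk3b (WT 1, WT 2, CER 1, CER 2), 97.2%, 96.7%, 96.6% and 96.3% for Lrrn4, and 100%, 94.7%, 95.7% and 100% for Upk1b. For Msln it was 90.7%, 80.5%, 96.0% and 91.3%, with endocrine cells holding 15.2% in WT 2. The authors named the clusters from their leading genes, so these shares describe the name and test nothing.

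**Figure D1:**
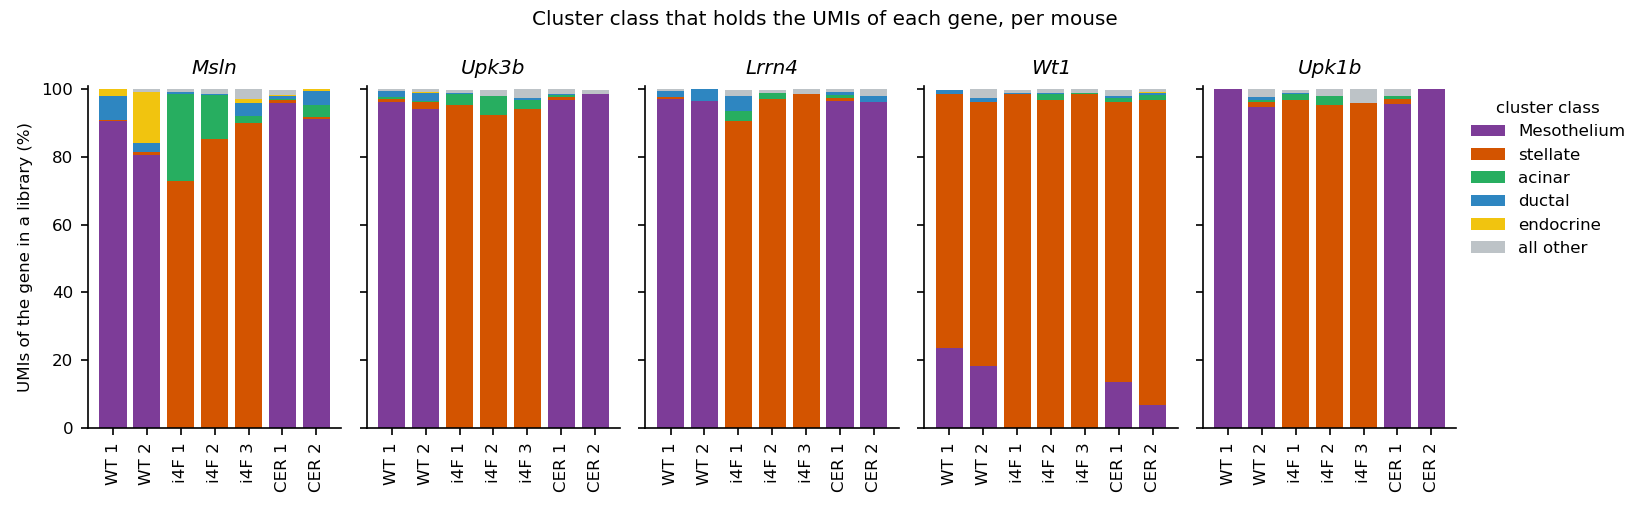
Share of each gene's UMIs in a library (y axis, %) held by the cluster classes (colours), for each of the 7 mice (x axis). Mesothelium held 80.5% to 100% of Msln, Upk3b, Lrrn4 and Upk1b in WT and CER mice and 6.62% to 23.5% of Wt1, while stellate clusters held 72.9% to 98.6% of all 5 genes in i4F mice.

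Wt1 was spread differently. Mesothelium held 23.5% and 18.1% of its UMIs in WT and 13.4% and 6.62% in CER mice, and the stellate clusters held 75.1%, 78.3%, 82.9% and 90.2%. Per molecule counted, Mesothelium nevertheless had the higher level, with 191.1, 187.6, 101.4 and 196.4 CPM (UMIs of the gene per 1000000 UMIs of the cells summed) against 73.1, 45.4, 46.2 and 52.6 CPM in stellate clusters. Within WT stellate cells, the level was 57.8 and 39.4 CPM in the first and 137.6 and 73.8 CPM in the second cluster named quiescent, and 2.55 and 2.30 CPM, 1 UMI in each mouse, in the cluster named activated. The cluster named activated in CER mice, the only stellate cluster there, had 46.2 and 52.6 CPM. Clusters were built separately for each condition, so an equal name does not mean equal cells.

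No cluster of the i4F mice was named Mesothelium. The stellate clusters held 72.9%, 85.3% and 90.2% of Msln in i4F 1, 2 and 3, 95.4%, 92.4% and 94.3% of Upk3b, 90.7%, 97.3% and 98.5% of Lrrn4, 98.5%, 96.9% and 98.6% of Wt1 and 96.8%, 95.4% and 96.1% of Upk1b. Acinar clusters held 25.7% and 13.1% of Msln in i4F 1 and 2, most of the remainder, and 2.06% in i4F 3. In i4F 1 and 2 the second cluster named activated stellate was small, with 144 and 126 cells, and reached 1704.8 and 2048.8 CPM of Msln. In i4F 3 the same cluster had 1167 cells and 109.6 CPM.

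Cells with a UMI of at least 2 of Upk3b, Lrrn4 and Upk1b, the genes least found outside Mesothelium, were picked out as a tighter definition after these values were seen. They are called uroplakin/Lrrn4 cells here. Among non-immune cells there were 38 and 58 in WT, 69, 58 and 49 in i4F and 190 and 26 in CER mice. In WT and CER mice 36, 55, 187 and 26 of them were in Mesothelium, and in i4F mice 68, 57 and 48 of them were in the second activated stellate cluster. They made up 47.2%, 45.2% and 4.11% of that cluster. A group of cells with several of these genes was thus found in all 7 mice, under a different cluster name in the i4F mice.

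The genes were found in the same cells to different degrees. Of the cells with Lrrn4, 96.3% (78 of 81, WT), 84.4% (114 of 135, i4F) and 88.7% (141 of 159, CER) also had Upk3b, with the mice of a group pooled. Of the cells with Upk1b, 91.2% (83 of 91), 75.1% (154 of 205) and 88.6% (179 of 202) had Upk3b. By mouse, the share was at least 70.9% for Lrrn4 and at least 62.0% for Upk1b, so cells with these genes were mostly Upk3b cells in every mouse. For Msln the share with Upk3b was 56.2% (45 of 80 cells) and 63.2% (48 of 76) in WT, 13.3% (76 of 571), 15.7% (62 of 394) and 60.2% (50 of 83) in i4F, and 83.3% (180 of 216) and 58.5% (24 of 41) in CER mice. Only i4F 1 and 2 were low, and i4F 3 lay between the WT mice. For Wt1 the share was 10.1% and 12.2% in WT, 3.68%, 4.84% and 15.4% in i4F and 10.7% and 4.68% in CER mice, which overlapped. Deeper libraries give more cells with any gene, and these shares were not corrected for depth.

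In the non-immune cells summed per mouse, no difference of the 5 genes between conditions passed the test, although some groups did not overlap. The share of all genes without overlap is not given, so these separations only describe the values. Msln had 58.5 and 29.7 CPM in WT, 66.6, 84.6 and 37.1 CPM in i4F and 25.0 and 17.2 CPM in CER mice. The i4F values overlapped with WT, and both CER mice lay below all others. Upk3b had 58.3 and 56.6 CPM in WT, 8.42, 12.0 and 46.4 CPM in i4F and 28.9 and 11.9 CPM in CER mice. Both WT mice were above all others, and i4F 3 was far above the other i4F mice. Lrrn4 had 11.1 and 8.27 CPM in WT, 2.16, 3.82 and 6.32 CPM in i4F and 6.58 and 4.66 CPM in CER mice. Again both WT mice were the highest. Wt1 had 32.9 and 28.2 CPM in WT, 31.9, 25.1 and 27.6 CPM in i4F and 38.3 and 38.2 CPM in CER mice. The CER mice were above the others, and WT and i4F overlapped. Upk1b had 15.0 and 10.1 CPM in WT, 7.68, 7.92 and 12.0 CPM in i4F and 11.9 and 4.40 CPM in CER mice, which overlapped throughout. In such sums, fewer cells with a gene and less RNA of it per cell cannot be told apart.

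**Figure D2:**
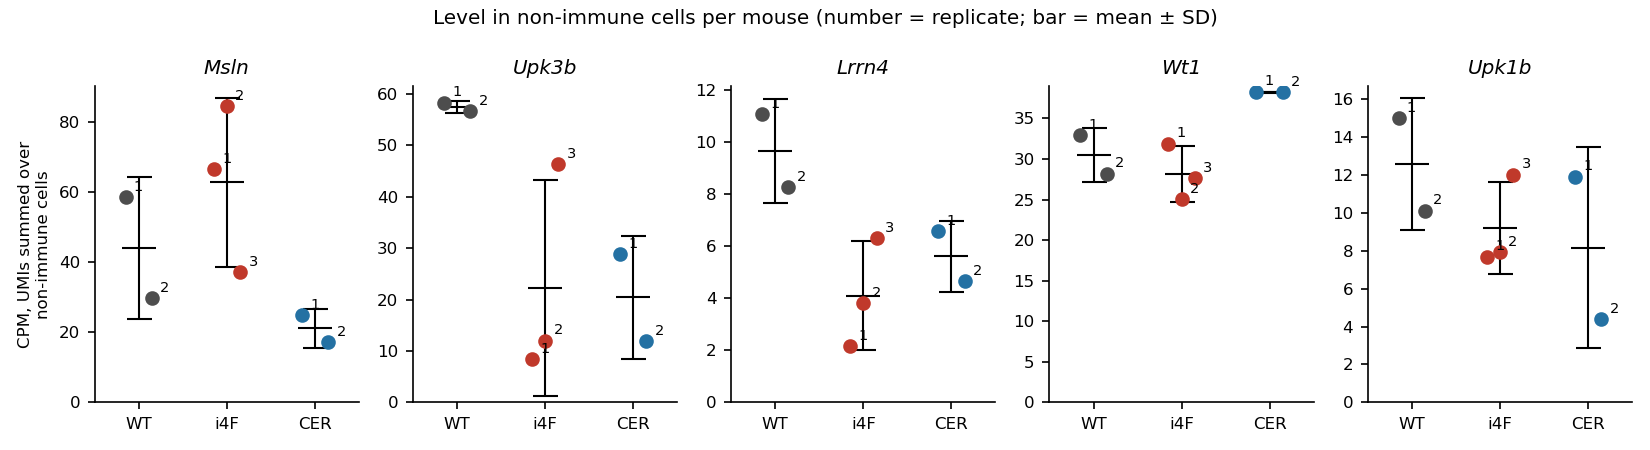
Level of the 5 genes in non-immune cells (y axis, CPM of UMIs summed per mouse) by condition (x axis), with a numbered point per mouse and the mean ± SD of the group. WT mice have the highest Upk3b (58.3 and 56.6 CPM), and the third i4F mouse (46.4 CPM) sits far from the first and second (8.42 and 12.0 CPM).

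Tested with edgeR on these sums, i4F against WT gave log2 changes of 0.91 (SE 0.44, adjusted p = 0.196) for Msln, -1.02 (SE 0.75, adjusted p = 0.353) for Upk3b, -0.89 (SE 0.46, adjusted p = 0.213) for Lrrn4, 0.27 (SE 0.20, adjusted p = 0.36) for Wt1 and -0.07 (SE 0.47, adjusted p = 0.921) for Upk1b. None of the 5 passed the adjusted p threshold of 0.05, beside 0.0% of the 17849 genes tested (0 genes by edgeR, 5606 at an unadjusted p under 0.05, and 3110 by DESeq2). Without i4F 3, the value was 1.18 for Msln, -2.12 for Upk3b and -1.32 for Lrrn4, and these 3 genes passed, but so did 51.6% of the 18438 genes tested then.

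CER against WT, which shares the WT mice with the comparison before, gave -0.70 (SE 0.47, adjusted p = 0.312) for Msln, -1.13 (SE 0.84, adjusted p = 0.352) for Upk3b, -0.43 (SE 0.50, adjusted p = 0.551) for Lrrn4, 0.65 (SE 0.22, adjusted p = 0.106) for Wt1 and -0.24 (SE 0.51, adjusted p = 0.75) for Upk1b. None passed, beside 0.0728% of all genes (13 genes by edgeR, 5959 at an unadjusted p under 0.05, and 3690 by DESeq2). Wt1 passed with DESeq2, at a log2 change of 0.70 (SE 0.26, adjusted p = 0.0384).

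For i4F against CER the values were 1.61 (SE 0.45, adjusted p = 0.29) for Msln, 0.11 (SE 0.76, adjusted p = 0.972) for Upk3b, -0.46 (SE 0.46, adjusted p = 0.758) for Lrrn4, -0.39 (SE 0.20, adjusted p = 0.519) for Wt1 and 0.17 (SE 0.47, adjusted p = 0.926) for Upk1b. None passed, and 0.0% of all genes did (0 genes by edgeR, 2025 at an unadjusted p under 0.05, and 555 by DESeq2). Every i4F mouse was above both CER mice in Msln, and the share of all genes separated in this way is not given.

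The same test was run in the stellate clusters, the class that held most UMIs of the 5 genes over all libraries. It gave large differences, which depend on the cluster names. The i4F mice have no Mesothelium cluster, and their cells with these genes lie in stellate clusters. Of the Msln UMIs there, 1133 of 2399, 1058 of 2141 and 43 of 351 (i4F 1, 2 and 3) lay outside the uroplakin/Lrrn4 cells. Msln had 1 and 6 UMIs in WT, 2399, 2141 and 351 UMIs in i4F and 9 and 1 UMIs in CER mice, or 0.187 and 0.657 CPM, 55.4, 92.5 and 86.8 CPM and 0.322 and 0.133 CPM. All i4F mice were far above the rest. Lrrn4 had 1 and 0 UMIs in WT, 98, 110 and 65 in i4F and 2 and 0 in CER mice. Upk1b had 0 and 3, 368, 226 and 123, and 7 and 0 UMIs in the same order. Upk3b had 8 and 22 UMIs in WT, 398, 330 and 459 in i4F and 10 and 0 in CER mice, or 1.50 and 2.41 CPM, 9.19, 14.3 and 113.6 CPM and 0.358 and 0 CPM. For all 4 genes the i4F mice did not overlap with the others, and the share of all genes without overlap is not given. Wt1, which is a stellate gene too, had 73.1 and 45.4 CPM in WT, 35.8, 31.0 and 70.0 CPM in i4F and 46.2 and 52.6 CPM in CER mice, and overlapped.

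Msln, Lrrn4 and Upk1b passed the filter on low counts through the i4F mice and therefore had to differ. Their calls depend on the cluster name under which the cells lie and are no test of a level. In i4F against WT these were Msln (adjusted p = 0.00428), Lrrn4 (adjusted p = 0.0313) and Upk1b (adjusted p = 0.0215), and no fold is given over so few UMIs in WT. Upk3b (adjusted p = 0.0534) and Wt1 (log2 change -0.20, SE 0.38, adjusted p = 0.717) did not pass. Of all 14818 genes tested, 12.0% were higher. The count of members rests on i4F 3 among others, since 1 of the 5 passed with either WT mouse, either CER mouse or i4F 2 left out, and all 5 passed without i4F 3, where 47.8% of all genes did. In that fit Wt1 passed as lower in i4F (log2 change -0.66, SE 0.20, adjusted p = 0.0328) and the other 4 as higher. In i4F against CER only Msln passed among the 5 (adjusted p = 0.00676), beside 0.304% of all genes that were higher. CER mice had 9 and 1 Msln UMIs in stellate clusters and 972 and 179 in Mesothelium, so the stellate sums leave out most of their Msln. With Mesothelium added to the stellate clusters, Msln had 55.4, 92.5 and 86.8 CPM in i4F and 32.7 and 23.5 CPM in CER mice. With the uroplakin/Lrrn4 cells then removed, it had 26.5, 46.5 and 11.2 CPM against 4.15 and 1.46 CPM. The part of the cluster names in the call was not tested. In CER against WT none of the 5 passed, beside 17.1% of all genes in either direction, where Wt1 had a log2 change of -0.09 (SE 0.42, adjusted p = 0.89).

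Of the 24 other genes listed as mesothelial, 22 were tested in the stellate clusters, and 6 were higher and 0 lower in i4F than in WT, beside 20.6% of all genes in either direction, with a median of 0.60. The balance changed to 7 higher and 9 lower without i4F 3 (median -0.17, with 47.8% of all genes called), 7 and 8 with a replicate block (median -0.11, 43.9%), and 2 and 2 with Mesothelium added (median -1.04, 14.3%). It fell to 2 and 0 without i4F 1 (median 1.04, 2.56%), 1 and 0 without i4F 2 (median 0.98, 0.188%) and 1 and 0 with library series (median 0.31, 0.108%). The 6 higher genes included Slpi (adjusted p = 0.00489), the neuronal membrane glycoprotein Gpm6a (adjusted p = 0.036) and the simple-epithelium keratins Krt19 (adjusted p = 0.0451) and Krt7 (adjusted p = 0.046). All 4 were higher in uroplakin/Lrrn4 cells than in the other cells of stellate clusters in 7 of 7 mice. In i4F mice nearly all uroplakin/Lrrn4 cells lie in stellate clusters, and in WT mice most lie in Mesothelium, so no fold is given. The part of these cells in the calls was not tested. The other higher genes were podoplanin Pdpn (log2 change 1.45, SE 0.21, adjusted p = 0.0179) and Aldh1a2 (1.22, SE 0.25, adjusted p = 0.0258). The 7 listed ductal markers summed to 132.9 and 54.6 CPM in WT, 2384.2, 3829.3 and 192.7 CPM in i4F and 589.7 and 731.7 CPM in CER stellate clusters without uroplakin/Lrrn4 cells, and their part in these values was not tested. In CER against WT Aldh1a2, Pdpn and Slpi were higher (2.08, 1.09 and 2.44) and Igfbp5 and Igfbp6 lower (-4.22 and -3.08), 5 of 22 beside 17.1% of all genes. These calls were not stable. With library series 0 were higher and 0 lower (0.0472% of all genes), and without i4F 2 the counts were 1 and 2 (8.44%). In i4F against CER Slpi was called (median of the listed genes 1.42), as were 0.459% of all genes in either direction. The part of the cluster names in this call was not tested. The counts were 10 higher and 1 lower with DESeq2 (5.30% of all genes), and 5 and 3 with a replicate block (5.96%). They were 7 and 4 without i4F 3 (11.5%), and 0 and 0 with Mesothelium added (0.0268%). In the non-immune cells 23 were tested and none passed in any comparison, with medians of -0.61 (i4F against WT), -0.37 (CER against WT) and -0.04 (i4F against CER). Without i4F 3, 3 were higher and 15 lower in i4F against WT (median -1.23), 4 and 7 in CER against WT and 0 and 3 in i4F against CER, where 51.6%, 43.0% and 8.67% of all genes passed. With a replicate block the counts were 2 and 15, 3 and 7, and 0 and 2, where 46.6%, 36.7% and 2.95% of all genes passed.

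The members' calls changed with the place of the Mesothelium cells. When the Mesothelium clusters of WT and CER mice were added to the stellate clusters, an alternative added after these values were seen, i4F against WT gave -0.02 (SE 0.44, adjusted p = 0.977) for Msln, -1.27 (SE 1.03, adjusted p = 0.385) for Upk3b, -1.43 (SE 0.76, adjusted p = 0.202) for Lrrn4, -0.67 (SE 0.68, adjusted p = 0.483) for Upk1b and -0.39 (SE 0.39, adjusted p = 0.481) for Wt1. With the uroplakin/Lrrn4 cells then removed, Msln stood at 2.87 (SE 0.95, adjusted p = 0.0719) and Upk3b at -0.23 (SE 1.47, adjusted p = 0.921). Msln then had 26.5, 46.5 and 11.2 CPM in i4F and 8.56 and 0.975 CPM in WT mice.

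The share of non-immune cells with UMIs of at least 2 of the 5 genes, called co-positive cells here, was 1.41% and 1.15% in WT (58 of 4104 and 64 of 5580 cells), 3.19%, 3.13% and 1.55% in i4F (180 of 5645, 133 of 4249 and 74 of 4784) and 3.59% and 0.815% in CER mice (234 of 6525 and 31 of 3805). The exact (Clopper-Pearson) 95% intervals were 1.07% to 1.82% and 0.884% to 1.46%, then 2.75% to 3.68%, 2.63% to 3.70% and 1.22% to 1.94%, then 3.15% to 4.07% and 0.554% to 1.15%, and cover counting error only. All i4F mice were above both WT mice, with i4F 3 close to WT 1, and the CER mice held the highest and the lowest value. The mean was 1.28% ± 0.188 (SD, n = 2) in WT, 2.62% ± 0.931 (SD, n = 3) in i4F and 2.20% ± 1.96 (SD, n = 2) in CER mice.

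By an exact two-sided permutation test, i4F exceeded WT by 1.34 percentage points with p = 0.2, the smallest p that 2 against 3 mice allow, and an adjusted p of 0.6 over the 3 comparisons. CER minus WT was 0.92 points (exact permutation p = 1.0) and i4F minus CER 0.421 points (exact permutation p = 0.8), both with an adjusted p of 1.0. None of these comparisons could reach 0.05.

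The i4F excess was mostly in cells with exactly 2 of the genes. Of the co-positive cells, 84 of 180 in i4F 1 and 60 of 133 in i4F 2 were in the first activated stellate cluster, where 3 and 2 cells had at least 3 of the genes. The share with at least 3 genes was 0.926% and 1.00% in WT, 1.28%, 1.29% and 0.878% in i4F and 3.07% and 0.683% in CER mice. With the uroplakin/Lrrn4 definition it was 0.926% and 1.04%, 1.22%, 1.37% and 1.02%, and 2.91% and 0.683%. Under both, WT and i4F were near each other and CER 1 stood alone. The difference i4F minus WT was then 0.185 points (exact permutation p = 0.6) and 0.221 points (exact permutation p = 0.4). Depth moved with the result as well, since co-positive cells had medians of 2613.5 to 10351.5 UMIs against 1273 to 8815 in the other non-immune cells of the same mouse. When each cell was thinned to 1000 UMIs, which left out 720 to 2072 shallower cells a mouse, the shares were 1.18% and 0.999% in WT, 0.776%, 1.28% and 1.33% in i4F and 1.35% and 0.628% in CER mice, and i4F minus WT was 0.0367 points (exact permutation p = 1.0).

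**Figure D3:**
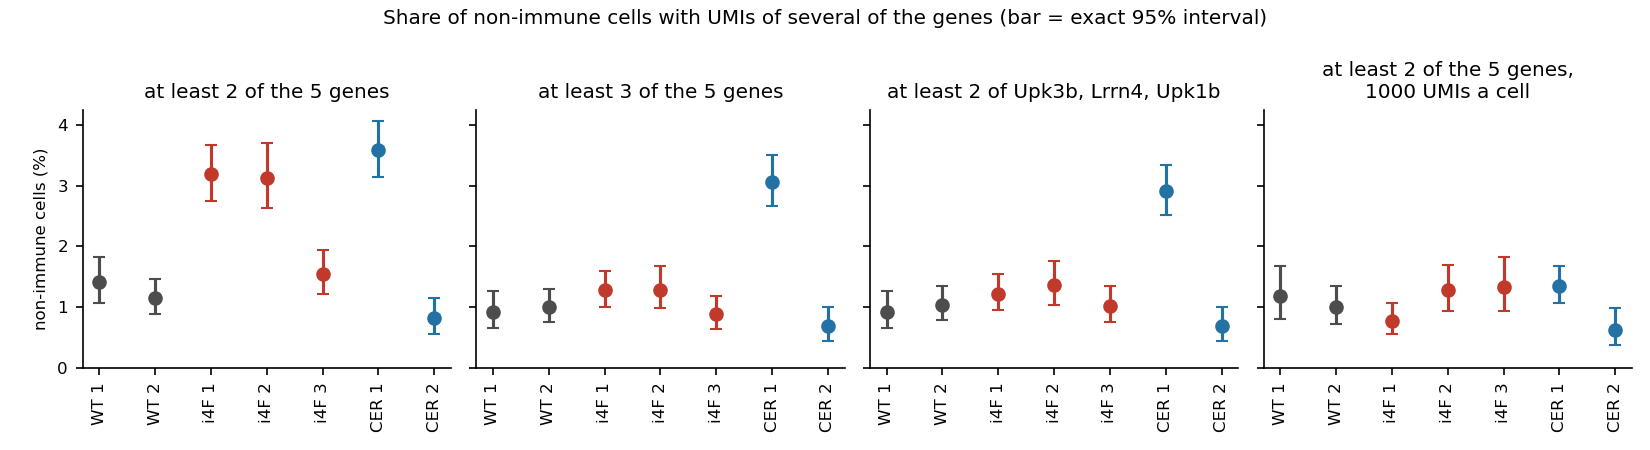
Share of non-immune cells (y axis, %) per mouse (x axis) with UMIs of at least 2 or at least 3 of the 5 genes, with at least 2 of Upk3b, Lrrn4 and Upk1b, and with at least 2 of the 5 genes after thinning to 1000 UMIs a cell; bars are exact 95% intervals. CER 1 is the highest of 7 mice in the first 3 panels (3.59%, 3.07% and 2.91%), and the i4F mice stand above WT in the first panel but not in the last.

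The uroplakin/Lrrn4 cells were described by 24 other genes listed as mesothelial, with no test. Both the list and the definition of the cells were chosen with values of these data known, so this is no independent check of what the cells are. In 19 of the 24, the level was higher than in the other non-immune cells of the same mouse in 7 of 7 mice, beside 7.03% of the 14427 genes compared. The median over the 24 of the median log2 difference, taken with 1 CPM added, was 3.12, beside -0.22 over all genes compared. Slpi, a secreted protease inhibitor, was at 8991.3 to 19787.7 CPM in these cells and 6.31 to 90.8 CPM in the others. Muc16, a membrane mucin of mesothelial surfaces, was at 29.7 to 544.2 against 0.0694 to 0.596 CPM. In every mouse both sums were higher in the uroplakin/Lrrn4 cells than in the others. Nkain4, which encodes a protein that binds the sodium pump, was at 468.2 to 1491.9 against 3.26 to 10.7 CPM, and Gpm6a, a neuronal membrane glycoprotein also found in mesothelium, at 116.6 to 998.1 against 0.722 to 9.55 CPM. Rspo1, a secreted enhancer of Wnt signalling, was at 61.1 to 355.7 against 1.05 to 5.66 CPM.

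The exceptions were 5 genes. Aldh1a2, a retinoic acid-synthesizing enzyme, was higher in 5 of 7 mice and Has1, a hyaluronan synthase, in 4 of 7. Krt8 and Krt18, keratins of simple epithelia, were higher in 2 of 7 each, and the ductal clusters exceeded the uroplakin/Lrrn4 cells in both in every mouse. Calb2, encoding calretinin, has a row in 1 of the 3 tables and was at 0 in these cells. Against stellate clusters, 21 of the 24 genes were higher in 7 of 7 mice, and against ductal clusters 18 were. Markers of other cell types were summed in the same cells. The 9 stellate and fibroblast markers came to 11898.1 to 23317.0 CPM in the uroplakin/Lrrn4 cells and 10874.4 to 18221.8 CPM in the other non-immune cells. They were higher in the uroplakin/Lrrn4 cells in every mouse but CER 1 (11898.1 against 16126.8 CPM). In the uroplakin/Lrrn4 cells, the 6 endothelial markers came to 48.8 to 138.3 CPM and the 5 pericyte and smooth muscle markers to 34.8 to 659.2 CPM. The 4 lymphatic markers, which share Pdpn with the mesothelial list, came to 284.3 to 564.2 CPM. The 6 immune markers came to 2.65 and 23.5 CPM in WT, 32.3 to 118.8 CPM in i4F, and 598.3 and 7.72 CPM in CER mice. Of the 8 ductal markers 7 were listed and came to 23.2 to 918.6 CPM, and of the 14 acinar markers 3 were listed and came to 0 to 557.8 CPM with the highest value in i4F 3. Of the 5 endocrine markers 2 were listed, at 0 to 54.0 CPM. By summed level, the 24 genes came to 59102.9 and 43187.6 CPM in WT, 37330.8, 39420.6 and 40398.5 CPM in i4F and 20243.5 and 35457.5 CPM in CER mice, against 3131.3 to 10522.1 CPM in the other non-immune cells and 21606.9, 9483.8 and 6463.3 CPM in the rest of the second activated stellate cluster of i4F 1, 2 and 3. In the clusters named Mesothelium the sum was 38379.5 and 38270.8 CPM in WT and 19937.2 and 34293.9 CPM in CER mice, above the other non-immune cells of each mouse. Ductal clusters, which share the keratins of the list, had 18884.2 to 25620.8 CPM, and in CER 1 their 24904.5 CPM was above the Mesothelium cluster and the uroplakin/Lrrn4 cells, so the sum alone does not single out these cells. In CER 1, 19 of the 190 uroplakin/Lrrn4 cells were among those with the highest doublet scores. What these other markers contribute to the values was not tested.

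**Figure D4:**
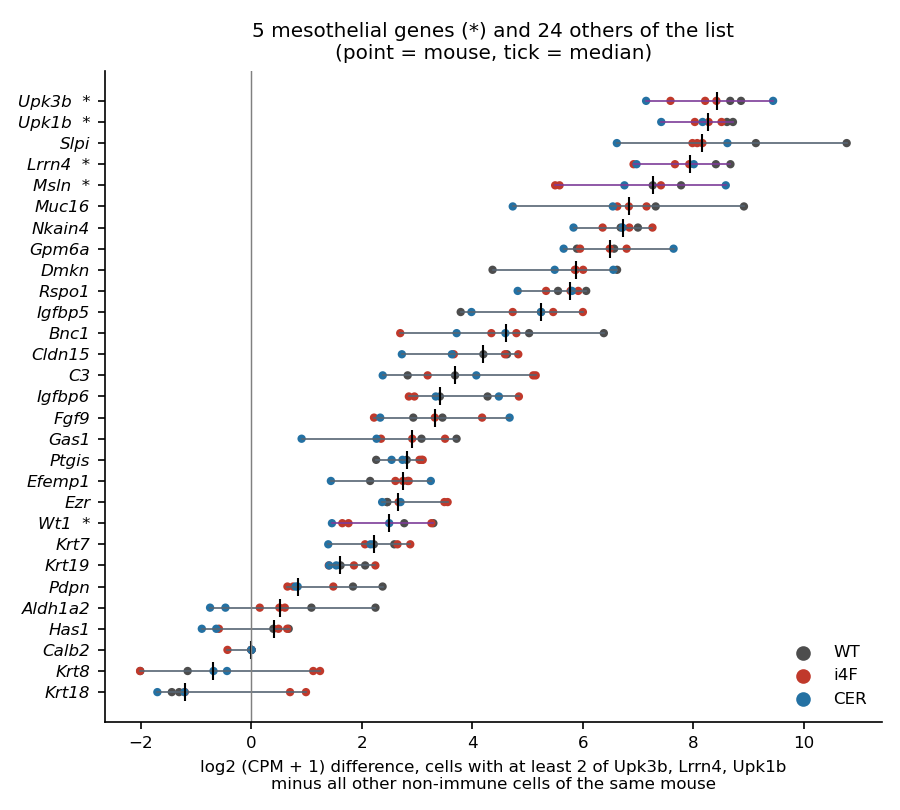
Difference in log2(CPM + 1) (x axis) between uroplakin/Lrrn4 cells and the other non-immune cells of the same mouse for the 5 genes (starred) and the 24 other listed genes (y axis), with a point per mouse and a tick at the median. Upk3b, Lrrn4 and Upk1b chose the cells, so their place is fixed; Slpi has a median of 8.16 and Muc16 of 6.83, while Krt18 (-1.21) and Krt8 (-0.69) have medians below 0.

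Within these cells, the members themselves varied between mice. Msln had 2097.2 and 1045.4 CPM in WT, 2017.6, 2226.2 and 1419.8 CPM in i4F and 485.0 and 1305.2 CPM in CER mice. Upk3b had 2253.8 and 2292.9 CPM, 583.3, 661.5 and 1811.6 CPM, and 581.5 and 1004.0 CPM. Both WT mice had the most Upk3b, whereas Msln overlapped between WT and i4F, and CER 1 was lowest in both. Wt1 had 273.4 and 173.8 CPM, 106.8, 77.8 and 230.5 CPM, and 99.2 and 208.5 CPM. Lrrn4 had 459.3 and 357.1 CPM, 149.8, 223.2 and 290.4 CPM, and 144.1 and 370.7 CPM, and Upk1b 610.6 and 432.3 CPM, 522.7, 448.5 and 543.9 CPM, and 255.1 and 363.0 CPM. As Upk3b, Lrrn4 and Upk1b chose the cells, these levels are a description.

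Other genes were tested in the co-positive cells, with 7317 genes and all 7 mice. In i4F against WT 4 genes passed, 0.0547% of those tested (1357 at an unadjusted p under 0.05, and 75 by DESeq2). Il11, a cytokine of the interleukin 6 family, had 3.76 and 2.27 CPM in WT, 104.5, 98.1 and 142.8 CPM in i4F and 14.4 and 21.8 CPM in CER mice. It was higher in i4F than in WT (adjusted p = 0.024), with 2 and 1 UMIs behind the WT values, which are too few for a fold. With 220, 151 and 40 UMIs in i4F, Il11 passed the filter on low counts through those mice, so this p restates the counts. Col8a1, a chain of collagen VIII, had 16.9 and 20.4 CPM in WT, 280.6, 211.2 and 178.5 CPM in i4F and 14.9 and 7.27 CPM in CER mice, a log2 change of 3.68 (SE 0.41, adjusted p = 0.0376). With 9 UMIs in each WT mouse and 591, 325 and 50 in i4F mice, Col8a1 also passed the filter through the i4F mice. Its p restates the counts as well. Ugdh, the enzyme that makes UDP-glucuronic acid for hyaluronan, had 52.6 and 49.9 CPM in WT, 392.7, 416.0 and 260.6 CPM in i4F and 155.0 and 174.4 CPM in CER mice, a log2 change of 2.89 (SE 0.34, adjusted p = 0.0376). Tspan13, a tetraspanin, had 75.2 and 79.5 CPM in WT, 9.97, 7.15 and 14.3 CPM in i4F and 70.8 and 87.2 CPM in CER mice, a log2 change of -2.93 (SE 0.36, adjusted p = 0.0414). The number of calls changed when a library was left out, to 0 without WT 2, i4F 2 or either CER mouse, 1 without WT 1, 2 without i4F 1 and 1342 without i4F 3. The named genes were picked for not overlapping between i4F and WT, so that trait was fixed by the choice. In all 4 the i4F mice did not overlap with the CER mice either, and the share of all genes without overlap is not given.

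Which genes passed depended on the cells that enter the sum. Of the co-positive i4F cells, 174 of 180, 123 of 133 and 73 of 74 were in stellate clusters, against 2 of 58 and 2 of 64 in WT. In cells with at least 3 of the genes, no gene passed in i4F against WT (0 of 6239, or 0.0%, by edgeR, 959 at an unadjusted p under 0.05). There Il11 had 0 and 2.36 CPM in WT and 37.8, 27.7 and 9.53 CPM in i4F mice, Col8a1 2.59 and 21.2 against 34.7, 47.5 and 142.9 CPM, Ugdh 33.7 and 51.8 against 276.4, 229.7 and 181.0 CPM, and Tspan13 101.0 and 82.5 against 21.1, 17.8 and 19.1 CPM. The log2 changes there were 2.54 for Col8a1 (SE 0.79, adjusted p = 0.191), 2.53 for Ugdh (SE 0.37, adjusted p = 0.0935) and -2.10 for Tspan13 (SE 0.34, adjusted p = 0.108). In all 4 genes the i4F mice still did not overlap with WT, but these cells are part of the cells in which the genes were picked.

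In CER against WT 0.0% of the genes passed in co-positive cells (0 by edgeR, 832 at an unadjusted p under 0.05, and 28 by DESeq2), and in i4F against CER also 0.0% (0 by edgeR, 766 at an unadjusted p under 0.05, and 38 by DESeq2). In cells with at least 3 of the genes, 6 genes passed in CER against WT, 0.0962% of those tested, and all 6 are given here. Saa3, an acute-phase apolipoprotein, had 2.59 and 0 CPM in WT and 533.1 and 637.5 CPM in CER mice (adjusted p = 0.00195, with 1 UMI in WT). Rfc5 and Mcm6, which load and form the DNA replication machinery, had 2.59 and 4.71 against 77.7 and 76.8 CPM (adjusted p = 0.0151) and 12.9 and 7.07 against 99.7 and 84.5 CPM (adjusted p = 0.0446). Chrdl1, a secreted antagonist of bone morphogenetic proteins, had 132.1 and 103.7 against 12.9 and 7.68 CPM (adjusted p = 0.0151). Clic3, an intracellular chloride channel protein, had 152.8 and 122.5 against 9.11 and 15.4 CPM (adjusted p = 0.0112), and Sult1a1, a sulfotransferase, 90.6 and 122.5 against 10.2 and 15.4 CPM (adjusted p = 0.0446). Saa3 (1 and 0 UMIs in WT), Rfc5 (1 and 2 UMIs) and Mcm6 (5 and 3 UMIs) passed the filter on low counts through other mice, so their p-values restate the counts. In CER 1, 20 of these 200 cells were among those with the highest doublet scores.

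Of the 24 other mesothelial genes, 23 were tested in co-positive cells and none passed in any of the 3 comparisons. Their median log2 change was -1.30 in i4F against WT, -0.74 in CER against WT and -0.24 in i4F against CER, beside medians of all genes of 0.02, -0.04 and 0.06. These medians depended on the cells summed, since in cells with at least 3 members they were -0.71, -0.68 and 0.41, and in uroplakin/Lrrn4 cells -0.67, -0.71 and 0.42. Without i4F 3, 15 of them passed as lower in i4F than in WT, where 14.4% of all 9339 genes passed in either direction. In i4F against WT the lowest values were those of Fgf9, a growth factor (-2.75, SE 0.67, adjusted p = 0.152), Igfbp5, a binding protein of insulin-like growth factors (-2.50, SE 0.72, adjusted p = 0.168), and Bnc1, a zinc-finger protein of mesothelium and keratinocytes (-2.41, SE 0.76, adjusted p = 0.184). The highest were Dmkn, an epidermal secreted protein (0.52, SE 0.28, adjusted p = 0.35), Pdpn (0.37, SE 0.28, adjusted p = 0.486) and Aldh1a2 (0.11, SE 0.31, adjusted p = 0.875).

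In i4F 1 and 2, Msln was also found in acinar clusters. There it had 1.30 and 0 CPM in WT, 239.4, 73.6 and 2.77 CPM in i4F and 0.339 and 2.89 CPM in CER mice, from 1 and 0, 845, 329 and 8, and 2 and 7 UMIs. Only i4F 1 and 2 stood out, and i4F 3 was within the range of the CER mice. A test in the acinar clusters, added after these values were seen, did not call Msln in i4F against WT (adjusted p = 0.131), where 0.0808% of 11134 genes passed. Without i4F 3, the i4F mouse that had little Msln there, it passed (adjusted p = 0.00113), as did 32.7% of all genes. Msln passed the filter on low counts through i4F 1 and 2, whose values prompted the test, so these p-values restate the counts and add no support. With 1 UMI in WT no fold is given. Msln and Upk3b were the members that passed the filter on low counts there, and Upk3b had a log2 change of 0.23 (SE 0.88, adjusted p = 0.894).

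A Msln UMI was found in 13.0% of the acinar cells of i4F 1 (median 1933.0 UMIs a cell) and 5.70% of those of i4F 2, against 0.629% and 1.08% of B cells and 0.458% and 0.491% of macrophages of the same libraries, with medians of 644.0 UMIs a cell in B cells and 2735.0 in macrophages of i4F 1, and of 2020.0, 480.5 and 2085.0 in acinar cells, B cells and macrophages of i4F 2. The acinar share was thus above that of B cells and macrophages in both libraries, and the B cells were shallower. Ductal cells had 2.52% and 1.42% and endocrine cells 5.26% and 3.03% in i4F 1 and 2, also below the acinar share. In i4F 2 the stellate share of 12.8% was above it. The part of depth and of RNA released by other cells (ambient RNA) in these shares was not tested. Acinar cells are named here by their cluster. Those with at least 3 Msln UMIs had less of the listed acinar markers, as given under the other observations. In i4F 3 the acinar share was 0.376%, near its B cells at 0.295%.

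**Figure D5:**
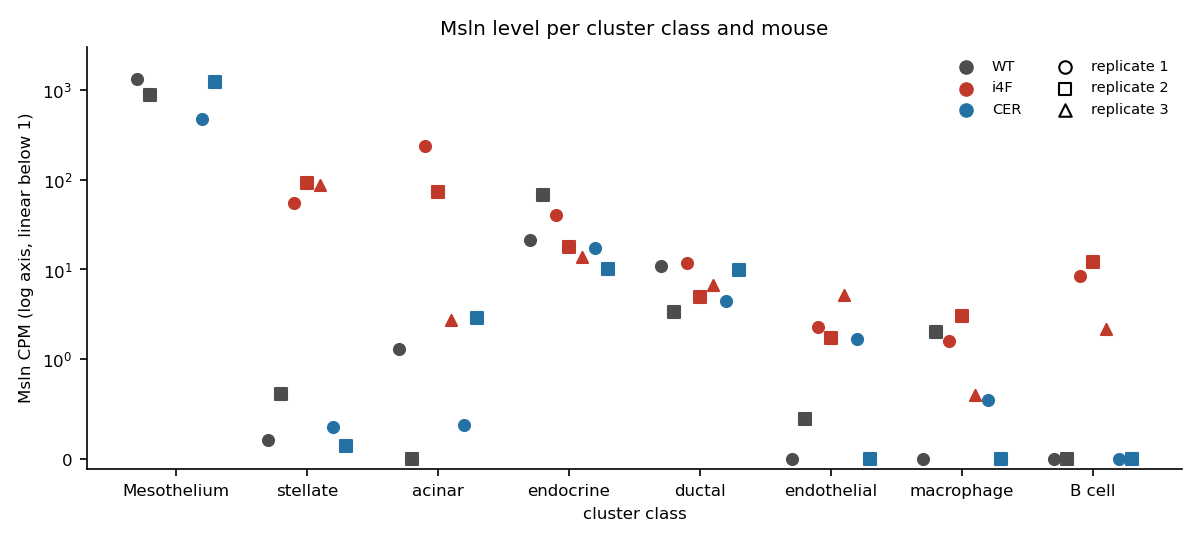
Level of Msln (y axis, CPM of UMIs summed per mouse and class, on a log axis that is linear below 1) in 8 cluster classes (x axis), with a point per mouse. Mesothelium lies between 471.6 and 1309.6 CPM in WT and CER mice, the i4F stellate values between 55.4 and 92.5 CPM, and the acinar values of i4F 1 and 2 (239.4 and 73.6 CPM) above those of the other 5 mice (0 to 2.89 CPM).

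Cells with at least 3 Msln UMIs and no UMI of Upk3b, Lrrn4 or Upk1b were counted to see whether this Msln came from single cells. There were 44, 19 and 0 in the acinar and 122, 112 and 2 in the stellate clusters of the i4F mice. In i4F 1 and 2, up to 87 and 78 Msln UMIs were in 1 cell of the acinar clusters. WT and CER mice had none in either class. Of the 44 and 19 acinar cells, 2 and 2 were among those with the highest doublet scores, and of the 122 and 112 stellate cells 9 and 4.

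Across 83 sums of a library and a cluster with at least 50 cells, the members fell into a tight trio and 2 looser genes. The sums of 1 library share its depth, and no test is given. Pearson's r of log2(CPM + 1) was 0.902 for Upk3b with Lrrn4, 0.905 for Upk3b with Upk1b and 0.938 for Lrrn4 with Upk1b, and the other genes nearest to Lrrn4 and Upk1b were Lrp2 (0.957 and 0.943), the endocytic receptor megalin, and Muc16 (0.938 and 0.926). Msln had 0.730 to 0.790 with the trio and was nearest to Crym (0.813), which encodes a thyroid hormone-binding protein. Wt1 had 0.432 with Msln and 0.492 to 0.565 with the trio. It was nearest to Ahnak2 (0.799), Wt1os (0.797), Gabra3 (0.797) and Loxl1 (0.797), an enzyme that cross-links elastic fibres. Wt1os had 19 to 135 UMIs a library.

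The 10 genes most like the sum of the 5 members, among 15282 with a row in all tables and at least 200 UMIs, were Rpp25 (0.783), Gjb5 (0.777), Wt1os (0.776), Begain (0.773), Rspo1 (0.772), Lgals7 (0.766), Crym (0.751), Zbtb7c (0.750), Rab40b (0.748) and Adgrd1 (0.742). Of these, Rspo1 is also among the 24 other mesothelial genes listed.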

How the data were processed

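Single-cell libraries of 7 mouse pancreata were made by the authors with the 10x Genomics 3′ assay, aligned with Cell Ranger to GRCm38 and filtered at 150 genes and 5% mitochondrial UMIs a cell. The deposited values are counts of UMIs per gene and cell, with a cluster name and a percent of mitochondrial UMIs for each cell. Clusters were built and named by the authors for each condition separately. Ambient RNA was corrected by the authors with SoupX, and whether this preceded the deposited counts is not stated. Here the deposited counts were summed per mouse and set of cells, and each mouse was 1 replicate. Sums with at least 20 cells in every mouse were tested with edgeR 4.0.16 (TMM, filterByExpr, quasi-likelihood, Benjamini-Hochberg over all genes of the fit, threshold 0.05, all 7 mice in a fit), with DESeq2 1.42.0 as an alternative. SE is the log2 change divided by the root of F. The stellate clusters were used as the class that held most UMIs of the members over all libraries. Shares of cells were compared with exact permutation tests and given exact 95% intervals. The genes named were the members, 24 other mesothelial genes, the 10 genes most like the summed members, and the most changed genes in co-positive cells (at most 5 higher and 5 lower) among those that passed, had a mean of at least 3 on the log2 CPM scale and did not overlap between the groups. Doublet scores came from Scrublet (scanpy 1.11.5), taking the top 0.8% per 1000 cells since its automatic threshold marked 2 cells in WT 1 and 0 in i4F 3. Doublets were marked and not removed. Promoters of 2 of the 5 members were in the RefSeq table. On simulated counts with 200 genes changed 4-fold between i4F and WT, 137 were recovered in non-immune cells (17849 genes), 157 in stellate clusters (14818 genes), 123 in co-positive cells (7317 genes) and 99 in acinar clusters (11134 genes). The simulation gave every gene the same spread between mice and had no mouse that stood apart as i4F 3 does. Its counts therefore do not give the power of the tests on the data. The members and gene lists were chosen with earlier results of these data known.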

Additional observations from a re-analysis of the deposited data

How the results depend on the processing

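Of the 5 members in non-immune cells, where none passed, 3 passed in i4F against WT with the replicate block (46.6% of all genes did), 1 each in CER against WT with the 2 groups alone (42.3%), with DESeq2 (20.7%) and with the block (36.7%), and 1 each in i4F against CER with DESeq2 (3.11%) and with the block (2.95%). With a mouse left out the counts were 0 to 3, 0 to 1 and 0 to 1, the upper value in each without i4F 3. In stellate clusters, the count for i4F against WT was 1 with library series as a term (0.108% of all genes), 5 with the block (43.9%), 0 with Mesothelium added and 0 with the cells with at least 2 of Upk3b, Lrrn4 and Upk1b then removed, and 1 to 5 with a mouse left out. For CER against WT it was 1 without the filter (14.3%) and 1 with the block (35.3%; 0 to 1 with a mouse left out). For i4F against CER it was 4 with DESeq2 (5.30%), without the filter (3.99%) or with the block (5.96%), and 0 with library series or with Mesothelium added, also without those cells (0 to 4 with a mouse left out).

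Genes called in co-positive cells numbered 75, 28 and 38 with DESeq2 (i4F against WT, CER against WT, i4F against CER), 791, 407 and 389 without the filter and 956, 10 and 116 with the replicate block. Without TMM they were 7 in i4F against WT and 1 in i4F against CER. With at least 3 members they were 0 in i4F against WT and 6 in CER against WT, and with at least 2 of Upk3b, Lrrn4 and Upk1b 0 and 7. With a mouse left out they were 0 to 1342, 0 to 79 and 0 to 303, the upper values without i4F 3. Msln in acinar clusters of i4F against WT passed with the block, at a fitted value of 7.43 (6.04 to 11.5 with a mouse left out), but over 1 WT UMI such log2 values depend on the prior count of the fit and give neither a fold nor a bound.

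Shares reversed in CER minus WT after thinning (-0.0998 points) and among all cells (-0.174), and in i4F minus CER with at least 3 members (-0.725) or at least 2 of Upk3b, Lrrn4 and Upk1b (-0.594). With a mouse left out they were -0.465 to 2.31 and -0.964 to 1.81, and 1.06 to 1.88 for i4F minus WT. Reversed log2 changes of single genes, none of them called, were Wt1 in i4F against WT over all cells (-0.01) and without TMM (-0.12), Upk3b in i4F against CER with the block (-0.92), Upk1b in i4F against CER with library series (-0.26) and, in stellate clusters, Wt1 in CER against WT with library series (0.19). With Mesothelium added, Msln (-0.02) and Upk3b (-1.27, and -0.23 without the cells above) reversed in i4F against WT. With a mouse left out, Upk1b ranged over -0.29 to 0.16, -1.25 to 0.35 and -0.41 to 1.19 in the 3 comparisons, Upk3b in i4F against CER over -1.0 to 1.02, stellate Wt1 over -0.66 to 0.07, -0.31 to 0.18 and -0.58 to 0.13, and stellate Msln in CER against WT over -1.69 to 0.8. Leaving out TMM moved the median of all genes to -0.37 in i4F against WT and -0.39 in CER against WT.

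The replicate numbers are not known to mark shared animals or days, and the differences of replicate 1 and 2 correlated across 15425 genes at -0.48 (WT with CER), -0.07 (WT with i4F) and 0.11 (CER with i4F), so the pairing was not used. i4F 3 has no partner and adds nothing under the block. With the CER numbers crossed, chosen after seeing the data, CER against WT called 2 members in non-immune cells (43.1% of all genes). It called 1 member in stellate clusters (41.8% of all genes) and 7 genes in co-positive cells (0.0957%). The Mesothelium, acinar and uroplakin/Lrrn4 alternatives were also chosen after seeing the data. The cause of the changes was not tested. Low counts limit the stellate and acinar comparisons, where WT sums held 0 to 6 UMIs of Msln, Lrrn4 and Upk1b.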

Other observations

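Msln also appeared in endocrine clusters, with 21.4 and 68.0 CPM in WT, 40.5, 17.6 and 13.9 CPM in i4F and 17.5 and 10.2 CPM in CER mice. The i4F values overlapped with WT and with CER, and both WT mice lay above both CER mice. The i4F and CER values rest on 1 to 6 UMIs each. In WT it had 19 UMIs in 3 of 44 cells of WT 1 and 83 UMIs in 15 of 89 cells of WT 2 in the smaller of the endocrine clusters (36.1 and 109.5 CPM), and 0 and 1 UMI in the 56 and 90 cells of the other. The letters that tell these clusters apart by cell type could not be read in the deposited names. Of the cells with at least 3 Msln UMIs and no UMI of Upk3b, Lrrn4 or Upk1b, 3 and 10 were endocrine and 6 and 1 ductal in WT 1 and WT 2.

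The acinar and stellate cells with at least 3 Msln UMIs in i4F 1 and 2 were compared for the other genes they carried. These were picked for their values and have no test. Cells of at least 5000 UMIs were compared with cells of the same cluster and mouse without Msln. In the second acinar cluster, 42 and 19 such cells had genes of the cornified envelope of stratified epithelia, Cnfn (2109.8 and 3088.6 CPM, against 64.4 and 226.9 CPM in the cells without Msln), Sprr2a3 (5819.1 and 1965.4 against 461.1 and 21.6 CPM) and Sprr2b (6954.8 and 2253.0 against 730.8 and 203.2 CPM). They also had more of the surface antigen Psca (904.1 and 742.7 against 28.2 and 69.6 CPM) and the trefoil factor Tff1 (1806.4 and 1188.8 against 74.9 and 191.3 CPM). Reg3b and Reg2, secreted lectins of acinar cells, were lower, with 4575.0 and 8787.9 against 117658.1 and 82533.6 CPM and 2363.5 and 5459.3 against 71485.2 and 56092.4 CPM. The 3 listed acinar markers were lower too, at 163.2 and 375.9 against 2586.5 and 3150.4 CPM, which goes against the acinar name of these cells. The median depth differed as well, with 23975 and 21122 UMIs a cell against 8330 and 9666, and the part of depth in these values was not tested. Cryab, a small heat shock protein, was higher in both, with 10833.3 and 4075.8 against 1138.1 and 603.7 CPM in the acinar and 3024.8 and 4894.7 against 678.2 and 921.0 CPM in the stellate cells.

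In the first activated stellate cluster, 119 and 109 such cells had more of the keratins Krt14 (671.7 and 423.5 against 40.7 and 15.7 CPM) and Krt16 (116.0 and 66.1 against 3.47 and 2.96 CPM) of stratified epithelia and of Crabp2, a retinoic acid-binding protein (752.9 and 626.0 against 64.9 and 30.6 CPM). The chemokine Cxcl12 (17.1 and 11.7 against 224.7 and 275.5 CPM), the growth factor Igf1 (11.6 and 24.1 against 199.7 and 254.1 CPM) and the summed stellate and fibroblast markers (5950.7 and 6852.5 against 16654.0 and 14105.3 CPM) were lower. The summed other mesothelial genes were at 1561.6 and 1781.5 against 1832.9 and 2095.1 CPM there, and at 12828.6 and 18653.6 against 10217.3 and 8700.6 CPM in the acinar cells.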
